A study of Mus musculus with 6 samples.

Results

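Collagens are the structural proteins of the extracellular matrix, and 44 collagen genes were measured among 19938 genes in mouse embryonic stem (ES) cells with and without Satb1. They were all genes with a symbol made of Col, a type number, a and a chain number, for which the array's annotation gave a probe set with that single symbol. The 44 genes had 46 probe sets, and the brightest on average over the 6 arrays represented its gene. Of the 44 genes, 11 encode chains of fibrillar collagens, 8 encode collagens of basement membranes (type IV, XV and XVIII) and 25 encode other collagens.

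The wild-type (WT) group had 3 arrays, replicates 1, 2 and 3. The Satb1-/- group, which lacks the chromatin-organising DNA-binding protein SATB1, also had 3 arrays, labelled as clones 1-1, 1-2 and 2-1; what the first number stands for is not given in the labels. The cells of both groups carried a HygroTK selection marker in the Oct4 locus and were grown for 3 days with LIF, serum and hygromycin on irradiated feeder cells, which are growth-arrested cells that support ES cells. Before total RNA was prepared, the suspension was left to settle so that feeders were depleted, and its upper part was taken; the labels do not say how many feeders were left. The labels call the Satb1-/- arrays clones, without saying whether all 3 are separate lines, and do not say whether the WT arrays came from separate cultures, so each p-value is set against the array-to-array spread alone, part of which may be technical.

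A collagen is built from chains that wind around each other into a helix of repeated glycine-led units. Fibrillar collagens, above all type I and type III, are made in bulk by fibroblasts and form the ropes of connective tissue. Type IV collagen forms the sheet-like network of basement membranes, on which epithelia and the early embryonic cell layers rest, together with laminins, nidogens and perlecan. The remaining families decorate fibrils, form beaded filaments or short-chain networks, or span the cell membrane.

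The arrays matched their labels as far as the genes measured show. Satb1 read 5.14 ± 0.16 (SD, n = 3) in WT and 4.47 ± 0.10 (SD, n = 3) in Satb1-/- on the log2 scale (difference -0.67, SE 0.12, limma adjusted p = 0.022); it missed the threshold without WT replicate 1 or any one Satb1-/- array (-0.74 to -0.58 over the 6 arrays left out in turn). Whether its probe set lies in the deleted part is not given. Pou5f1, the Oct4 gene, read 10.22 and 9.83, Sox2 9.94 and 10.24, and Utf1 9.77 and 9.76. These defining ES cell genes were bright in both groups. Of 12 listed ES cell markers, 3 were higher in Satb1-/- and 0 lower at a limma adjusted p under 0.05. Over all genes, 1.4% passed that threshold either way. The 3 were Nanog (1.09, limma adjusted p = 0.00109), Tfcp2l1 (0.88, 0.0182) and Esrrb (0.56, 0.0435). Only Nanog kept its call with any one array left out. Of the 12 differences, 6 lay below 0. Some genes typical of fibroblasts were also bright: the filament gene Vim read 10.43 and 10.63, and the smooth muscle actin gene Acta2 8.40 and 8.53. These were the brightest of 25 measured fibroblast markers, of which 21 lay above the median gene level. Fap (3.04 and 3.16) and Lum (3.77 and 3.95) read dim. Pairs of WT arrays correlated at 0.975 to 0.986 across probe sets (Pearson's r) and pairs of Satb1-/- arrays at 0.989 to 0.991, where probe sets are not independent replicates. Array readings have no read depth, the number of arrays limits their precision, and because probe sets differ in affinity the readings of different genes are not compared as amounts of RNA.

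No collagen gene passed the test between Satb1-/- and WT. With limma, and a threshold of 0.05 on p-values adjusted over all genes (Benjamini-Hochberg), 0 of 44 collagens were higher and 0 lower, where 1.4% of all genes tested passed (0.923% higher and 0.476% lower). At an unadjusted limma p under 0.05 there were 3 collagens (6.82%), Col4a1, Col13a1 and Col1a2, against 10.5% of all genes. The lowest adjusted p of any collagen was that of Col4a1 (0.195). The differences of the 44 genes lay between -0.43 and 0.42 log2 units, with a median of -0.06 against -0.00 over all genes. All 44 of the 95% intervals from limma lay within 1 log2 unit either way, as did those of 19625 of all 19938 genes. The outermost bounds of the collagens were -0.72 for Col4a1 and 0.79 for Col1a2. The median standard error of a collagen was 0.12 log2 units, and the smallest difference that passed the test for any gene was 0.47. Collagen differences as small as those measured here were thus below the size at which any gene passed with these arrays.

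More collagens read lower than higher in the Satb1-/- arrays, 33 against 11 (75% lower, against 51.5% of all genes). That balance rested on 1 array: without WT replicate 1, 21 of 44 collagens (47.7%) were lower and their median was 0.01. The 2 groups did not overlap for 5 collagens (11.4%), where 15.1% of all genes had groups that did not overlap. The Satb1-/- arrays were the higher ones for 3 of these, Col11a1, Col8a1 and Col6a3 (8.18% of all genes), and the lower ones for 2, Col4a1 and Col4a2 (6.97% of all genes).

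**Figure D1:**
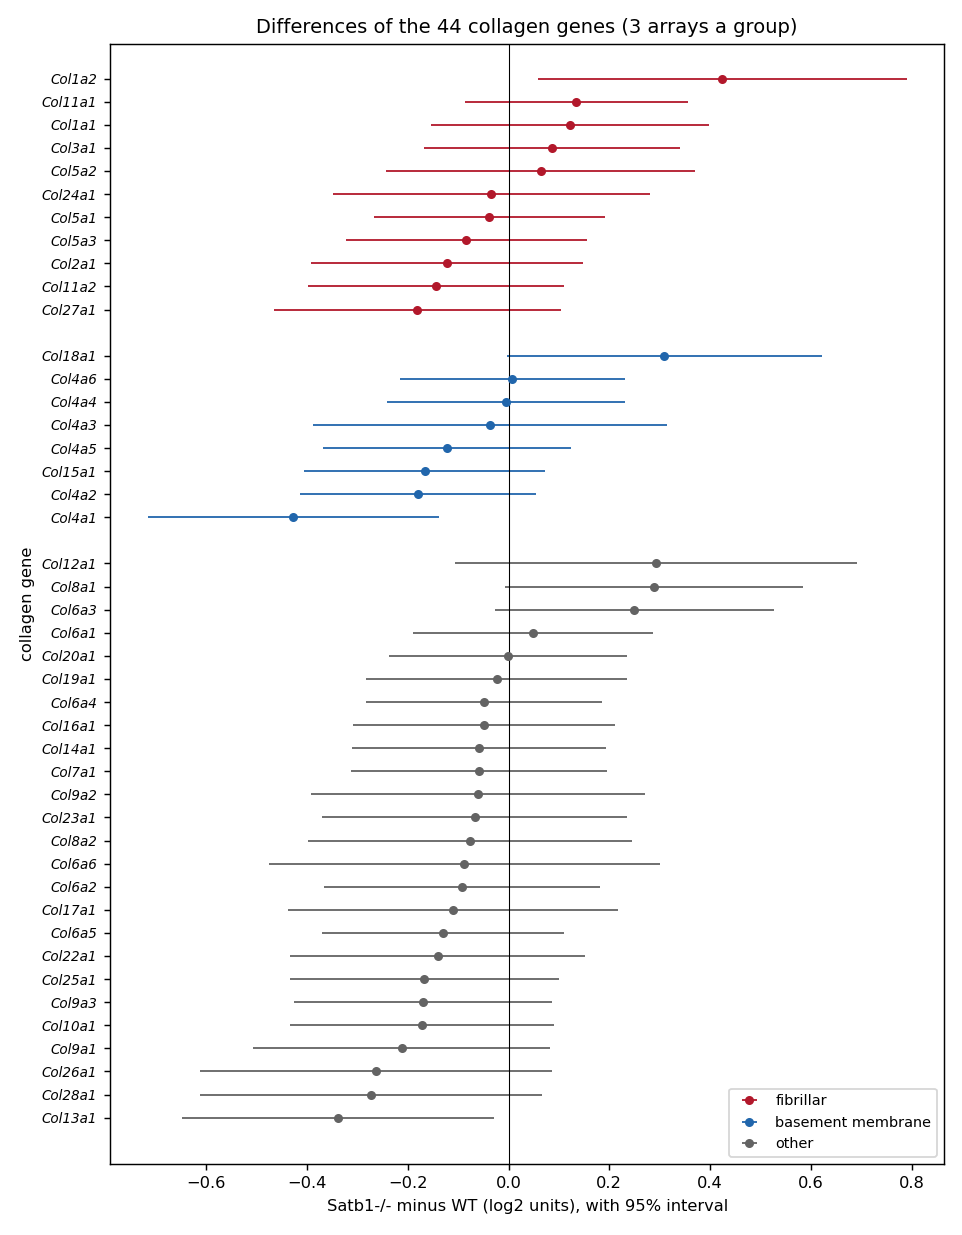
Difference between Satb1-/- and WT arrays (log2 units, horizontal axis) for each of the 44 collagen genes, ordered within the fibrillar (red), basement membrane (blue) and other (grey) classes; points are limma estimates and lines their 95% intervals, with 3 arrays a group. All 44 intervals lie within 1 log2 unit of 0, as do those of 19625 of all 19938 genes. Col4a1 (-0.43) and Col1a2 (0.42) mark the ends of the range.

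Promoter sequences are shown for the genes that the account below turns on: Col1a2, the fibrillar gene with the largest difference, Col18a1, the basement membrane gene with the largest positive difference, and the overlapping starts of Col4a1 and Col4a2, the collagens whose groups separated downward. They come from RefSeq on build GRCm38.p6, in which 35 of the 44 genes had 38 promoter windows (250 bases before to 50 after a gene's start). The first is the 150 bases before the Col1a2 start at chr6:4505468-4505617, plus strand, in which capitals mark the only CCAAT box, 109 bases before the start.
Col1a2: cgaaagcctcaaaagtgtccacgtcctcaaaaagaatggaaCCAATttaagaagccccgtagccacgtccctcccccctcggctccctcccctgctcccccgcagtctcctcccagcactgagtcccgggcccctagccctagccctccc
The second is the 150 bases before the upstream of the 2 Col18a1 starts at chr10:77166531-77166680, minus strand, in which capitals mark 3 copies of CCGCCC, the reverse complement of the GC box GGGCGG.
Col18a1: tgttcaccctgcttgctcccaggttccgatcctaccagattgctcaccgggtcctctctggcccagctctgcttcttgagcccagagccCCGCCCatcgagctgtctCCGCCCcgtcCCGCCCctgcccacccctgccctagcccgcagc
Col4a1 and Col4a2 lie head to head on opposite strands, and their RefSeq starts are 21 bases apart, so that their windows share 78 bases. A stretch of 30 bases ahead of the Col4a2 start, at chr8:11312765-11312794, plus strand, holds a CCAAT box (capitals) 32 bases before that start. The RefSeq genes overlap here, so this stretch lies inside the Col4a1 gene.
Col4a2: ggagctccCCAATttgttggcgctgccccc
On either strand, CCAAT was found in 13 of the 38 collagen windows (34.2%) and in 37.4% of all 32851 windows. The letters TATAAA were found in 5 (13.2%) against 13.6% of all, and GGGCGG in 23 (60.5%) against 35.7%. These matches describe the letters of the windows only.

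Among the fibrillar collagens, 0 of 11 genes passed the test (limma; 1 at an unadjusted p under 0.05), 5 differences lay above and 6 below 0, and the median difference was -0.03. Without WT replicate 1 the median was 0.08. The type I and type III chains are the ones that fibroblasts, and so feeder cells, express most. Col1a2, the second chain of type I collagen, read 7.19, 7.70 and 7.00 in WT replicates 1, 2 and 3 and 7.66, 7.82 and 7.67 in Satb1-/- replicates 1-1, 1-2 and 2-1. WT replicate 2 lay among the Satb1-/- values, and the other WT arrays lay below all of them. The difference was 0.42 (SE 0.16, a fold of 1.34, limma adjusted p = 0.365). Without WT replicate 2 it was 0.63 and passed the test (limma adjusted p = 0.0483; 0.0483 to 0.737 over all alternatives run), the only case in which a collagen did so when 1 array was left out. Without WT replicate 3 it was 0.28, and with array weights 0.22.

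Col1a1, which encodes the main chain of type I collagen, had a smaller difference than its partner. It read 7.87, 8.18 and 7.81 in WT and 7.99, 8.19 and 8.04 in Satb1-/-, again with WT replicate 2 close to the highest Satb1-/- array and the other WT arrays below all 3. Its difference was 0.12 (95% interval -0.15 to 0.40, limma adjusted p = 0.857). Col3a1, the chain of type III collagen, which joins type I in soft tissue, read 6.26, 6.08 and 5.95 in WT and 6.21, 6.24 and 6.11 in Satb1-/-. Here WT replicate 1 was the highest of all arrays and the groups overlapped (difference 0.09, 95% interval -0.17 to 0.34). The type V chains, which start and limit the width of type I fibrils, differed by -0.04 (Col5a1), 0.06 (Col5a2) and -0.08 (Col5a3).

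The cartilage fibril collagens had differences of either sign. Col11a1 read 5.02, 4.97 and 4.88 in WT and 5.08, 5.12 and 5.07 in Satb1-/-. Its groups did not overlap, but the difference was 0.13 (SE 0.10, limma adjusted p = 0.76). Its partner Col11a2 read 5.48, 5.40 and 5.18 in WT and 5.23, 5.28 and 5.11 in Satb1-/- (difference -0.14). Col2a1, the cartilage collagen proper, read 6.01, 5.66 and 5.72 in WT and 5.61, 5.79 and 5.62 in Satb1-/- (difference -0.12). In both, WT replicate 1 was the highest array and the groups overlapped. Of 9 cartilage markers, 0 passed the test (limma; 0 at an unadjusted p under 0.05), and their median difference was -0.02. Col27a1 read 6.03, 5.73 and 5.57 in WT and 5.57, 5.63 and 5.59 in Satb1-/-, with WT replicates 1 and 2 above the other 4 arrays (difference -0.18). Col24a1 differed by -0.03.

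**Figure D2:**
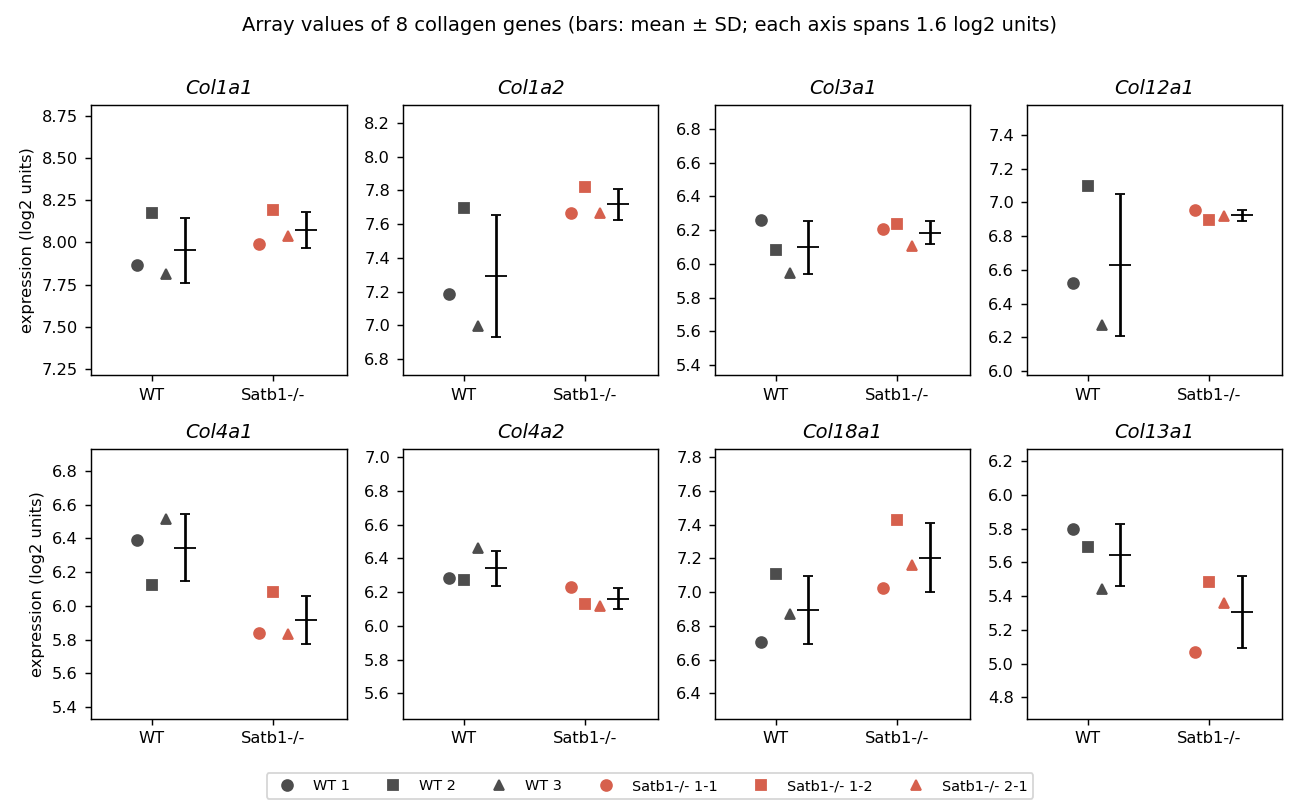
Array values (log2 units, vertical axis) of 8 collagen genes in WT (grey) and Satb1-/- (red); each symbol is 1 array, and the black dash and bar give the mean ± SD of 3 arrays. In Col1a2, Col1a1 and Col12a1, WT replicate 2 (square) reads higher than the other WT arrays, while in Col4a1 and Col4a2 all Satb1-/- values lie below all WT values.

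Feeder genes other than collagens are given beside the fibrillar ones because feeder cells can supply both. Of 26 listed feeder fibroblast markers, 25 were measured, and 0 passed the test. At an unadjusted limma p under 0.05 there were 6 (24%), 5 of them higher. That share was 10.5% of all genes and 16.5% of genes above the median level. The median difference of the 25 was 0.19, against -0.00 over all genes. Of the 25, 21 lay above 0 and 4 below (16% below, against 51.5% of all genes). The groups did not overlap for 7 (28%), against 15.1% of all genes and 20% of those above the median level. Summed over the 25 markers, the level (log2 of the sum) was 11.77, 11.81 and 11.85 in WT and 12.20, 11.80 and 12.09 in Satb1-/-. The ranges of that sum overlapped. The median deviation of the markers from their 6-array means was -0.12, -0.07 and -0.07 in WT and 0.24, -0.05 and 0.13 in Satb1-/-. By that measure the groups did not overlap, though Satb1-/- replicate 1-2 was only just above WT. The markers with the largest differences were Thy1, a surface protein of fibroblasts (0.62), and Postn, a matrix protein bound by collagen (0.61). Thbs2, a matrix thrombospondin (0.59), and Dcn, the fibril-coating proteoglycan decorin (0.59), followed. Limma adjusted p-values of these genes, in this order, were 0.262, 0.405, 0.128 and 0.545. Cnn1 went the other way (-0.54), with all Satb1-/- arrays below all WT arrays. It had the lowest limma adjusted p of the list (0.105).

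Dcn and Postn shared the order of the WT arrays with Col1a2, but not that of the Satb1-/- arrays. Dcn read 7.54, 8.33 and 6.88 in WT and 8.35, 7.92 and 8.25 in Satb1-/-, and Postn 6.06, 6.67 and 5.46 against 6.83, 6.44 and 6.74. In both, WT replicate 2 lay within the Satb1-/- range, and WT replicate 3 was the lowest array; of the Satb1-/- arrays replicate 1-2 was the lowest, where it was the highest for Col1a2 and Col1a1. The part of feeder content in the Col1a2 values was not tested, and fewer feeder cells and less RNA per cell cannot be told apart in bulk RNA. Most of the 25 markers did not share the WT order of Col1a2. In many of them WT replicate 3 was the highest WT array, among them Vim, Sfrp1, Twist1 and Acta2. Acta2, smooth muscle actin, read 8.37, 8.30 and 8.52 in WT and 8.82, 8.11 and 8.67 in Satb1-/-.

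**Figure D3:**
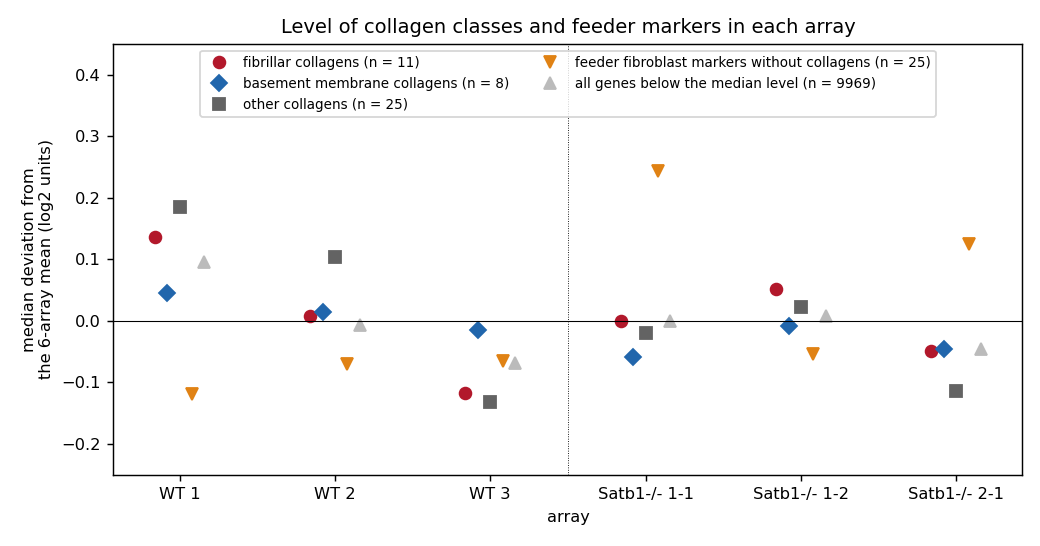
Median deviation of each gene set from its 6-array mean (log2 units, vertical axis) in each array, for the fibrillar, basement membrane and other collagens, the 25 feeder markers and the genes below the median level. WT replicate 1 is the highest array for the 3 collagen classes and for the dim genes (0.10), while the feeder markers are highest in Satb1-/- replicate 1-1 (0.24).

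Among the basement membrane collagens, 0 of 8 genes passed the test (limma; 1 at an unadjusted p under 0.05), 6 lay below 0 and the median difference was -0.08. Col4a1 and Col4a2, the chains that form the common type IV network, were the members in which all Satb1-/- arrays read below all WT arrays. Col4a1 read 6.39, 6.13 and 6.52 in WT and 5.84, 6.08 and 5.83 in Satb1-/-, with Satb1-/- replicate 1-2 close under WT replicate 2. The difference was -0.43 (SE 0.13, a fold of 0.744, limma adjusted p = 0.195). Col4a2 read 6.28, 6.27 and 6.46 in WT and 6.23, 6.13 and 6.12 in Satb1-/-, a difference of -0.18 (SE 0.11, limma adjusted p = 0.65).

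These neighbours lie on chromosome 8, which read lower as a whole in the Satb1-/- arrays. The 955 measured genes of that chromosome had a median difference of -0.19, and 526 of its 570 genes brighter than the median gene lay below 0. The 30 measured genes around Col4a1 had a median of -0.16, and those around Col4a2 of -0.14. Col4a2 was thus about as low as the genes beside it, and Col4a1 was lower than their median by more. Both genes were brighter than the median gene, and the 570 such genes of the chromosome had a median of -0.29. Col4a2 (-0.18) was less low than that median, and Col4a1 (-0.43) was lower. Among the 20 genes on each side, Shcbp1 (-0.82), Efnb2 (-0.69), Timm44 (-0.51) and Ing1 (-0.46) lay lower than Col4a1; they were named after their values were seen. Timm44 was the only one of these neighbours to pass the test (limma adjusted p = 0.0351). What the shared direction of this chromosome contributes to the type IV values cannot be told apart from loss of Satb1.

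**Figure D4:**
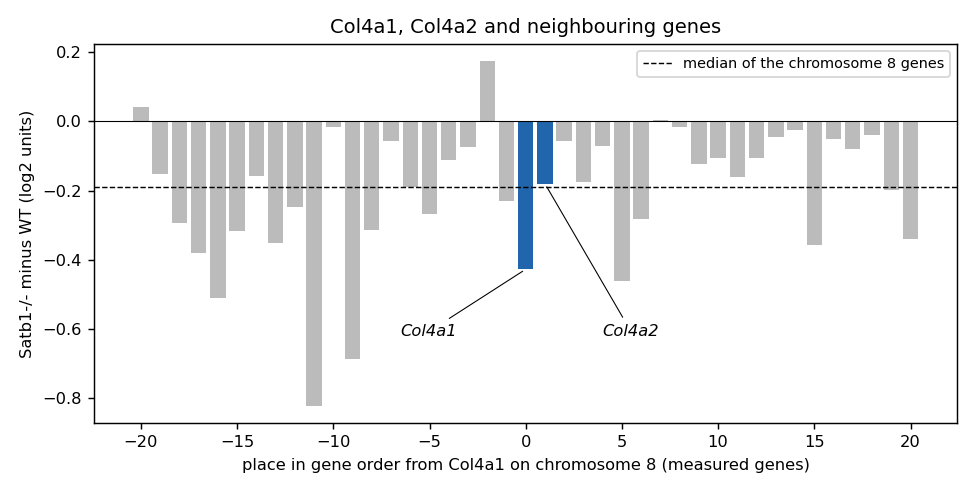
Difference between Satb1-/- and WT (log2 units, vertical axis) for the measured genes around Col4a1, in gene order along chromosome 8 (horizontal axis); Col4a1 and Col4a2 are blue, and the dashed line is the median of the chromosome's 955 genes (-0.19). Most bars point down, and Shcbp1 (-0.82) reaches lower than Col4a1 (-0.43).

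The other type IV chains belong to networks of specialised basement membranes such as those of the kidney, and they lie on chromosomes 1 and X. Col4a3 differed by -0.04, Col4a4 by -0.01, Col4a5 by -0.12 and Col4a6 by 0.01. Col4a6 read 4.32, 4.24 and 4.23 in WT and 4.26, 4.34 and 4.21 in Satb1-/-. All 4 overlapped between the groups and had mean readings between 4.26 and 5.03, below or near the median gene (5.05), where hybridisation background compresses differences. Col15a1, a basement membrane zone collagen, read 4.91, 4.71 and 4.75 in WT and 4.58, 4.72 and 4.56 in Satb1-/- (difference -0.17, limma adjusted p = 0.696).

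Col18a1, whose product carries the endostatin fragment and sits in most basement membranes, read 6.71, 7.11 and 6.87 in WT and 7.02, 7.43 and 7.16 in Satb1-/-. The lowest Satb1-/- array lay below the highest WT array. Its difference was 0.31 (SE 0.14, limma adjusted p = 0.485), with an interval from -0.00 to 0.62. The 30 genes around it on chromosome 10 had a median of -0.04. It was thus the basement membrane collagen with the largest positive difference, opposite in sign to Col4a1.

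Among the non-collagen partners of the basement membrane, 16 were listed and 15 measured. Of these, 1 rose and 0 fell, where 1.4% of all genes passed the test. There were 11 differences above 0 and 4 below, and the median difference was 0.19 against -0.00 over all genes. The groups did not overlap for 6 of the 15 (40%), against 15.1% of all genes. Of the 15, 12 lay above the median gene level, and 20% of all genes above that level did not overlap. By array the list's median deviation was -0.24, 0.06 and -0.10 in WT and -0.02, 0.15 and 0.12 in Satb1-/-. The groups overlapped by that measure, but not by the summed level (log2 of the sum). The list's sum was 10.77, 11.12 and 10.88 in WT and 11.15, 11.39 and 11.29 in Satb1-/-, with WT replicate 2 close under the lowest Satb1-/- array. Lama1, the laminin chain of early embryonic basement membranes, rose from 5.57, 5.52 and 5.82 in WT to 6.81, 7.53 and 7.16 in Satb1-/- (difference 1.53, SE 0.17, limma adjusted p = 0.00159), and it passed with any one of the 6 arrays left out (1.35 to 1.71). The linker Nid1 differed by 0.60 (limma adjusted p = 0.101), the laminin chain gene Lamb1 by 0.52 (0.0738) and the perlecan gene Hspg2 by 0.35 (0.296), and their groups did not overlap. Lamc3, another laminin chain gene, differed by -0.49 (0.184), with all Satb1-/- arrays below all WT arrays. Col4a1 and Col4a2 therefore read in the opposite direction to Lama1; this contrast between genes was not tested. Type IV collagen is made in bulk by extraembryonic endoderm, so its markers are given as well. Of 19 listed markers 18 were measured. Of these, 0 rose and 1 fell (Krt19, -1.74, limma adjusted p = 0.00322), where 1.4% of all genes passed. The median of the 18 markers was -0.03. Their summed level (log2 of the sum) was 9.58 to 9.77 in WT and 9.21 to 9.26 in Satb1-/-. Krt19 made that gap: without it the sum of the other 17 markers was 8.86 to 9.07 in WT and 8.96 to 9.06 in Satb1-/-. Among those 17, Thbd went the other way from Krt19 (0.52, limma adjusted p = 0.143), with all Satb1-/- arrays above all WT arrays. The endoderm regulators Gata4, Gata6 and Sox17 read 5.34, 4.54 and 4.12 in WT and 5.07, 4.58 and 4.04 in Satb1-/-, dim readings, and the groups overlapped in all 3 genes. The part of such cells in the type IV values was not tested.

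Among the 25 other collagens, 0 passed the test (limma; 1 at an unadjusted p under 0.05), 21 lay below 0 and the median difference was -0.08. That median was -0.01 without WT replicate 1, -0.17 without WT replicate 3 and -0.13 with array weights. The lowest was Col13a1, a transmembrane collagen of cell adhesion sites, which read 5.80, 5.69 and 5.44 in WT and 5.07, 5.48 and 5.36 in Satb1-/-. Satb1-/- replicate 1-2 lay above WT replicate 3 (difference -0.34, SE 0.14, limma adjusted p = 0.409). The other membrane-spanning collagens also read lower, Col17a1, the hemidesmosome collagen, by -0.11, Col23a1 by -0.07 and Col25a1 by -0.17, all with overlapping groups. Next in size were Col28a1 (-0.27) and Col26a1 (-0.26). Col28a1 read 5.10, 4.88 and 4.60 in WT and 4.70, 4.72 and 4.33 in Satb1-/-, and Col26a1 6.15, 6.01 and 5.74 against 5.86, 5.38 and 5.87. In both, WT replicates 1 and 2 were the highest of the 6 arrays. Col7a1, which forms the anchoring fibrils of skin, differed by -0.06.

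The collagens that associate with fibrils held 9 measured genes, 8 of them below 0. The exception was Col12a1, which fibroblasts make alongside type I collagen. It read 6.52, 7.09 and 6.27 in WT and 6.96, 6.90 and 6.92 in Satb1-/-. WT replicate 2 was the highest of all arrays, and the other WT arrays were the lowest (difference 0.29, SE 0.18, limma adjusted p = 0.673). The difference was 0.53 without WT replicate 2, 0.11 without WT replicate 3 and 0.07 with array weights. Type IX collagen, which coats cartilage fibrils, differed by -0.21 (Col9a1), -0.06 (Col9a2) and -0.17 (Col9a3). Col9a2 read 6.53, 6.42 and 6.12 in WT and 6.14, 6.57 and 6.18 in Satb1-/-, with Satb1-/- replicate 1-2 the highest array. The remaining genes, Col14a1, Col16a1, Col19a1, Col20a1 and Col22a1, lay between -0.14 and -0.00.

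Type VI collagen forms the beaded filaments around cells, and 0 of its 6 chains passed the test (limma; 0 at an unadjusted p under 0.05). Col6a3 read 5.76, 5.69 and 5.72 in WT and 6.21, 5.93 and 5.78 in Satb1-/-; its groups did not overlap, though Satb1-/- replicate 2-1 was only just above WT (difference 0.25, SE 0.12, limma adjusted p = 0.553). Its partners Col6a1 and Col6a2 differed by 0.05 and -0.09. Of the newer chains Col6a4, Col6a5 and Col6a6, which lie side by side on chromosome 9, all read between -0.13 and -0.05. Col6a5 and Col6a6 had a second, dimmer probe set each, which differed by -0.41 and -0.04 against -0.13 and -0.09 for those used. Among the short-chain network collagens, Col8a1, found in vessel walls and the cornea, read 4.97, 5.12 and 4.69 in WT and 5.15, 5.37 and 5.13 in Satb1-/-, where the lowest Satb1-/- array lay just above the highest WT array (difference 0.29, SE 0.13, limma adjusted p = 0.495). Its partner Col8a2 differed by -0.08 and Col10a1, the marker of enlarged cartilage cells, by -0.17.

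The collagens also varied from one WT array to another. WT replicate 1 was the highest WT array in 28 of 44 collagens (63.6%), against 39.1% of all genes and 62% of the genes below the median level. WT replicate 3 was the lowest in 31 (70.5%), against 38.4% and 56.9%. The median deviation of the 44 collagens from their 6-array means was 0.14, 0.05 and -0.12 in WT replicates 1, 2 and 3 and -0.02, 0.02 and -0.09 in the Satb1-/- arrays. For all genes below the median level it was 0.10, -0.01 and -0.07 in WT, and for all genes above it -0.10, -0.01 and 0.06. The collagens above the median level, 30 of the 44, deviated by 0.19, 0.07 and -0.15 in WT. Their median thus had the order of the dim genes and not that of the bright ones. Single genes did not all follow it. WT replicate 2 was the highest WT array in 13 of the 44 collagens, among them the type I chains and Col12a1. WT replicate 3 was the highest in 3, Col4a1, Col4a2 and Col5a2.

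Genes that make, trim, crosslink, cleave or bind collagen were taken from 6 lists. Of their 82 measured genes 3 rose and 0 fell (3.66%, against 1.4% of all genes). An unadjusted limma p under 0.05 was found for 24.4%, against 10.5% of all genes. Of the 82, 50 lay above the median gene level, and 16.5% of all genes above that level had such a p. Of 18 measured genes of chain hydroxylation and folding, 0 passed the test, and the median difference was 0.09. At an unadjusted limma p under 0.05 there were 2 of the 18 (11.1%). P4hb, the shared subunit of prolyl hydroxylase that makes the helix stable, read 10.08 in both groups (difference -0.00), and the hydroxylase gene P4ha1 differed by 0.35 (limma adjusted p = 0.74), with WT replicate 2 (8.56) the highest array. Colgalt1, which adds sugar to collagen chains and lies on chromosome 8, differed by -0.30 (adjusted p = 0.437).

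In the list of procollagen transport and trimming, 1 of 17 genes rose and 0 fell, with a median of 0.08. The gene that rose was Mep1b, a meprin protease that can trim procollagen, from 4.07, 3.97 and 4.62 to 4.95, 5.08 and 5.08 (difference 0.81, SE 0.16, limma adjusted p = 0.0365), a dim reading in both groups. It passed only without WT replicate 3 when 1 array was left out (0.69 to 1.01). The enhancers of procollagen trimming Pcolce2 (0.73) and Pcolce (0.44) had limma adjusted p-values of 0.217 and 0.168; the groups of Pcolce did not overlap, and those of Pcolce2 did. Of 6 crosslinking genes, 0 passed the test. At an unadjusted limma p under 0.05 there were 4 (66.7%), against 10.5% of all genes. Loxl4 (0.61) and Loxl3 (0.35), of the lysyl oxidase family, lay above 0. Tgm2 (-0.57) and Pxdn (-0.31), which links type IV networks, lay below it. The groups of these 4 did not overlap (66.7%, against 15.1% of all genes). Of 13 genes of collagen cleavage and its inhibitors, 0 passed, and the median was 0.06. At an unadjusted limma p under 0.05 there were 2 of the 13 (15.4%).

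Of 10 collagen receptor genes, 1 rose and 0 fell, with a median of -0.04. Itga1, the alpha chain of the integrin receptor that prefers type IV collagen, rose from 4.34, 4.46 and 4.40 to 5.11, 4.97 and 4.88 (difference 0.59, SE 0.11, limma adjusted p = 0.0264), with no overlap but dim readings; the call was lost without WT replicate 1 or any one Satb1-/- array (0.52 to 0.64). Its partner Itgb1, on chromosome 8, differed by -0.20 (adjusted p = 0.627), and Ddr2, a receptor kinase for fibrillar collagen, by 0.33 (0.219). Among 18 matrix proteins that bind collagen, 1 rose and 0 fell, with a median of 0.10. Sparc, a secreted protein that binds fibrillar and type IV collagen, rose from 8.69, 8.81 and 9.03 to 9.41, 9.55 and 9.47 (difference 0.63, SE 0.12, limma adjusted p = 0.0281), and the call was lost without any one array but WT replicate 3 (0.55 to 0.72). Fn1, fibronectin, differed by 0.32 (adjusted p = 0.56) and Thbs1 by 0.27 (0.475).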

How the data were processed

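RNA of 6 samples was hybridised to 1-colour arrays. Log2 values of 35557 probe sets were deposited, which the authors made with RMA (background correction, normalization and probe summary), per the submitters' processing notes; RMA settings and genome build: not given in the sources used here. Dim readings are compressed by background.

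Gene names came from the platform annotation (21789 probe sets with 1 symbol). Satb1-/- and WT were compared with limma 3.58.1 in R 4.3.3 (lmFit, eBayes, no covariate, no filter), with Benjamini-Hochberg adjustment over 19938 genes; all p-values are limma's, and differences are Satb1-/- minus WT with moderated SE. The fit was tested on simulated data. Gene order came from RefSeq GRCm38.p6 and served only for neighbours (15 on each side). Members, classes, gene lists and named genes were chosen with earlier results of these data known. Array values are given for collagens that pass the test, the 6 brightest and the 3 largest differences each way in a class. They are also given for type I and III chains, Col4a1, Col4a2 and Col18a1. Of each list, members that pass and bright ones are named. Other list members were named with their values known, many of them for the size of their difference. Protein sequences were not used here. Alternatives covered normalization, probe set choice, dim genes, weights, variance model and each array left out.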

Additional observations from a re-analysis of the deposited data

How the results depend on the processing

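The count of collagens past the threshold (0 higher, 0 lower) held under a second quantile normalization, centring of each array, the mean of all probe sets, a restriction to genes above the median level, array weights, an intensity trend and averaging of Satb1-/- replicates 1-1 and 1-2. Leaving out 1 array gave 0 to 1 higher collagens, Col1a2 without WT replicate 2, and 0 lower. The median difference of fibrillar collagens was -0.0734 to 0.0794 with 1 array left out, the highest without WT replicate 1. That of basement membrane collagens was -0.1326 to -0.0505 with 1 array left out, -0.18 among genes above the median level, where fewer members remain, and -0.034 after the median of each member's 30 chromosome neighbours was subtracted. That of other collagens was -0.171 to -0.0061 with 1 array left out. Of 19 named collagens, Col4a6 (0.01) read -0.0083 with the averaged replicates, and between -0.0279 and 0.039 with 1 array left out; Col9a2 (-0.06) read -0.1969 to 0.027. The causes were not tested. Signal near background limits the dim members, 14 of 44 below the median gene. No paired analysis was possible because the groups share no replicate numbers.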
